A study of Mus musculus with 4 samples.

Results

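The genes described here are those whose transcript signal separated the first from the second cell line within each of 2 genotypes of mouse embryonic stem cells, in the same direction both times. RNA from 4 lines was measured on 1 Affymetrix Mouse Genome 430 2.0 array each, a microarray on which a transcript is read by 1 or more probe sets of short oligonucleotides. Of 45101 probe sets, 34945 named only 1 gene and were no control, and 17627 of these, for 10446 genes, had a mean signal of at least 100 over the 4 arrays. A probe set was a member when the lower of the 2 line 1 signals was at least 1.4 times the higher of the 2 line 2 signals, or the reverse. In all 524 probe sets of 501 genes were members, which is 2.97% of those tested. They comprised 426 probe sets of 406 genes with line 1 higher (2.42% of those tested) and 98 probe sets of 96 genes with line 2 higher (0.556%). Eny2, a subunit of chromatin and mRNA export complexes, had a member in each direction. The members were thus chosen by the 4 measured signals of each probe set, and the line differences below are a description and carry no test. Line 1 and line 2 here stand for the 2 lines with that number, 1 of each genotype. Signals are given with the conditional line first and the knockout line second, as a pair for line 1 and a pair for line 2.

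The groups were 2 lines labelled as conditional knockouts of UTX (cKO) and 2 labelled as knockouts (KO), and the stated subject of the series is the set of genes under UTX control. UTX is the product of the X-linked gene Kdm6a and removes methyl groups from lysine 27 of histone H3. All lines were kept on irradiated fibroblast feeders in serum medium (15% serum) with 1000 units per ml of leukaemia inhibitory factor, were passaged on gelatin to remove the feeders, and were grown overnight on gelatin at an equal density before RNA extraction. The labels give neither strain, sex, passage nor the agent that deletes the conditional allele, and they do not say whether lines with the same number are related. Each line was measured once, so the spread within a line was not measured, and in bulk RNA a change in the share of some cells and a change of RNA per cell cannot be told apart. The Kdm6a probe set with the higher signal read 658 and 265 in line 1 and 415 and 198 in line 2, so both knockout lines lay below both conditional lines. That difference of -1.17 ± 0.27 (log2, SE, n = 2 lines a group) had an adjusted p of 0.112 in limma and did not pass 0.05, and whether these probes lie in the deleted part is not given in the sources used here. Among cell type markers, the signals of 14 core pluripotency genes summed to between 117397 and 122274 on the 4 arrays. Those of 16 feeder fibroblast genes summed to 41378 and 23511 in line 1 and to 33083 and 25774 in line 2. All 6 Y-linked genes on the array were below the signal minimum, and Eif2s3y, a Y-linked translation factor gene, read 232 and 24.8 in line 1 and 48.4 and 24.8 in line 2.

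Embryonic stem cells in serum and leukaemia inhibitory factor move between a naive state and states nearer to differentiation, and transcription factors such as Tbx3, Esrrb, Klf4 and Nanog mark the naive end. Immediate early genes such as Fos and Egr1 are switched on within minutes by growth factors, ERK signalling, fresh serum or handling, and their RNA is short-lived. In the integrated stress response, amino acid shortage or other stress raises translation of the factor ATF4, which with C/EBP partners activates genes such as Chac1, Trib3 and Stc2, while misfolded protein in the endoplasmic reticulum activates chaperone genes through ER stress response elements. Sterol shortage releases SREBP factors, which activate the genes of cholesterol synthesis.

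Promoter sequences are shown for 5 members of the stress and sterol groups, because the results below describe these groups and their known response elements are short enough to be read in the sequence. They run from 250 bases before to 50 bases after the start of the gene, from RefSeq on GRCm38.p6, 5′ to 3′ on the gene's strand. Capitals mark the element found. In Chac1, Trib3 and Herpud1 it is the C/EBP-ATF response element, searched as TGATGNAAN on both strands and found on the reverse one.
Chac1 (chr2:119350992-119351291, strand +): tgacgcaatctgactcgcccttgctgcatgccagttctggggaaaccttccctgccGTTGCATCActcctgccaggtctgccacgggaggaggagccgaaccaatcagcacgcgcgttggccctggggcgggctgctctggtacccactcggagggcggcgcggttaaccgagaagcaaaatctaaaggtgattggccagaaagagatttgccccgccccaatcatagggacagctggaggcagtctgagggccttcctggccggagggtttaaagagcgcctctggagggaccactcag
Trib3 (chr2:152344011-152344310, strand -): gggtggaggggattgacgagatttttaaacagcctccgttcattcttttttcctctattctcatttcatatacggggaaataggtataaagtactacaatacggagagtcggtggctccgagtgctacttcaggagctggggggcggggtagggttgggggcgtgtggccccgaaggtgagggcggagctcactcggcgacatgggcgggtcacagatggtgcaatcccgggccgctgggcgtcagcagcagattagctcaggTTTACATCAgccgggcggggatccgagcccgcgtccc
Herpud1 (chr8:94386179-94386478, strand +): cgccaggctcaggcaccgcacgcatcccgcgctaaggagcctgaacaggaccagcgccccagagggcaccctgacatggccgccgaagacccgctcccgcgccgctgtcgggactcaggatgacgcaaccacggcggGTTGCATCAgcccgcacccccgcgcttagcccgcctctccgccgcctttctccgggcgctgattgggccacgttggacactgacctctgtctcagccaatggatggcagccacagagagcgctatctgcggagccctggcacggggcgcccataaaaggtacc
In Hspa5 the capitals mark the ER stress response element, searched as CCAAT and CCACG with any 9 bases between them, and in Hmgcs1 the sterol regulatory element, searched as TCACNCCAC, both on the forward strand.
Hspa5 (chr2:34771840-34772139, strand +): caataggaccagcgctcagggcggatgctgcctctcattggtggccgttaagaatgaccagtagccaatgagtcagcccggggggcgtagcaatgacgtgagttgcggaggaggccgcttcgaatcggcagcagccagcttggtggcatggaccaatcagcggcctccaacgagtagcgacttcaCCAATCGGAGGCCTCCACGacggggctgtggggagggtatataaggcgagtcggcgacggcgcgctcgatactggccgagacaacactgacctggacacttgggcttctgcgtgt
Hmgcs1 (chr13:119690101-119690400, strand +): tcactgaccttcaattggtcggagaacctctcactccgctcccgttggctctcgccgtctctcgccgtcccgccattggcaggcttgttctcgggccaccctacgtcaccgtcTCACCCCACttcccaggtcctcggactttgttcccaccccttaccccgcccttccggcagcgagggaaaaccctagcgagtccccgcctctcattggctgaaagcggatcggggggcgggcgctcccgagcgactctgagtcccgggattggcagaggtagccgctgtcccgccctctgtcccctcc
These 5 were chosen because they hold a match: 7 motifs were looked for in 22 member genes, of which 18 had a promoter in the table. Stc2, Insig1, Cyp51 and Hsd17b7 of the same groups hold none of these 3 elements, in the form searched, in that window. The other 4 motifs were TGACGTCA (in 0 of the 18), the CCAAT box CCAAT (in 10, and part of the ER stress response element), TGANTCA (in 2) and TATAAA (in 3). Over all tested genes with a promoter (8524), TGATGNAAN was in 2.08%, against 2.56% of 313 line 1 genes and 5.06% of 79 line 2 genes. The 4 line 2 genes behind that share are Chac1, Trib3, Herpud1 and Smim26. The ER stress response element, in the form searched, was in 0.176% of all and in Hspa5 alone among the members. Other spacings of it were not looked for, so its absence from other members, Herpud1 among them, holds for this form only. TCACNCCAC was in 1.07% of all, 1.6% of line 1 genes and 0% of line 2 genes. The shares for the other motifs over all promoters, line 1 genes and line 2 genes were 3.46%, 4.47% and 2.53% for TGACGTCA, 39.3%, 40.9% and 43% for CCAAT, 4.09%, 4.47% and 3.8% for TGANTCA, and 6.5%, 5.75% and 7.59% for TATAAA. A match describes the letters in this window only.

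How many members pointed each way depended on how the 4 arrays were scaled. With the signals as deposited, 81.3% of members had line 1 higher. With each array centred on its median log2 signal, 85 probe sets had line 1 higher and 823 line 2 higher (9.36% line 1), and after quantile normalization the counts were 207 and 198 (51.1% line 1). The median log2 signal over all probe sets was 0.24 higher in line 1 than in line 2 for cKO and 0.31 higher for KO, although the trimmed mean was 500 on every array. Of the 426 line 1 members, 85 probe sets of 81 genes met the rule under all 3 scalings, and of the 98 line 2 members, 91 probe sets of 89 genes did. Centring lowered both line 1 arrays relative to both line 2 arrays, which narrows line 1 separations and widens line 2 ones. All 98 line 2 members held under it for that reason, so the counts kept do not compare how robust the directions are. Named members of line 1 below are therefore given with the scalings they held under, and all line 2 members named below held under all 3, except that of Eny2, which failed after quantile normalization. The direction of the line difference was kept under all 3 scalings by every member that the naming rule picked. Under centring this was fixed in advance, since shifts of 0.24 and 0.31 (log2) are smaller than the factor of 1.4 in the rule.

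The imbalance was greatest among dim probe sets. Line 1 members made up 5.54% of tested probe sets with a mean signal from 100 to 200, 3% from 200 to 500, 1.5% from 500 to 1000 and 0.598% from 1000 up. The corresponding shares of line 2 members were 0.815%, 0.592%, 0.625% and 0.34%. The median mean signal was 211 for line 1 members, 354 for line 2 members and 564 for all tested. The median line difference over all probe sets of a signal range went from 0.17 (log2) in the dimmest to -0.04 in the brightest.

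**Figure D1:**
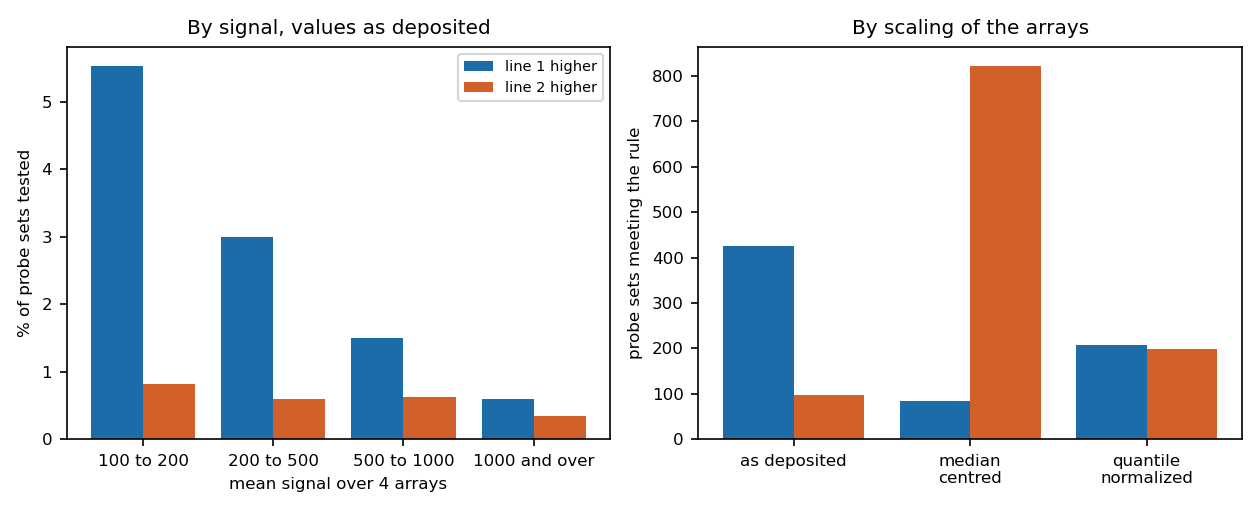
Left, the percent of tested probe sets that met the rule in each range of mean signal, with blue bars for line 1 higher and orange bars for line 2 higher; right, the number meeting the rule under 3 scalings of the arrays. Line 1 members fell from 5.54% of the dimmest to 0.598% of the brightest probe sets, and centring turned 426 and 98 into 85 and 823.

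The line differences of the genotypes were also compared over all probe sets. Over the 17627 probe sets, the difference of the cKO lines and that of the KO lines, which share no array, correlated with Pearson's r = 0.49 and Spearman's rho = 0.52, a description across probe sets that are not independent. The differences had the same sign for 70.2% of probe sets. Without the 524 members, which were chosen for agreeing signs, r was 0.41, rho 0.48 and the share 69.3%. With arrays centred r was 0.49 and the share 76.5%, and after quantile normalization they were 0.46 and 68.3%. For comparison, the same rule applied to genotype put 308 probe sets (1.75%) at least 1.4 times higher in both KO than in both cKO lines and 634 (3.6%) the other way. The ratio of the nearest values had a median of 1.53 and a maximum of 3.83 among line 1 members, and a median of 1.5 and a maximum of 2.27 among line 2 members. It reached 2 in 28 and 5 members respectively. At the edge of the rule, Fancc (1.4005) and Zfp386 (1.4008) lay just inside and Agap1 (1.3998) and Ap3s2 (1.3982) just outside for line 1, and Dnajc16 (1.4010) and Gpn1 (1.4013) inside and Plekhj1 (1.3988) and Trip6 (1.3955) outside for line 2.

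**Figure D2:**
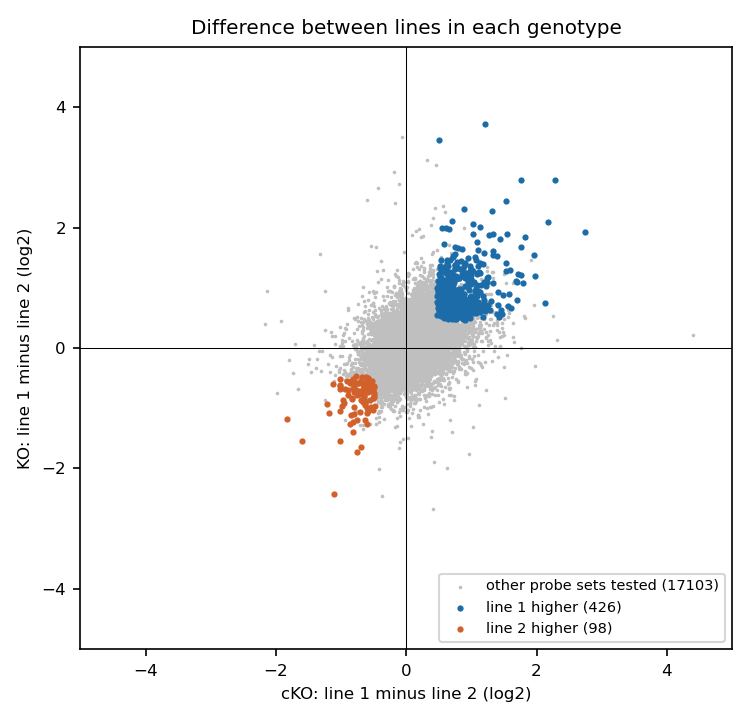
Each point is a probe set, with the log2 difference of line 1 and line 2 in the conditional lines on the x axis and in the knockout lines on the y axis. The 426 blue and 98 orange members fill the upper right and lower left corners that the rule defines, and the grey cloud of other probe sets leans the same way (r = 0.41 over those 17103, and 0.49 over all).

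The widest separation was in Zap70, a tyrosine kinase best known from T cell receptor signalling. Its signal was 282 and 146 in line 1 and 38.2 and 34.8 in line 2, a ratio of the nearest values of 3.83. Both line 2 arrays were thus far below the signal minimum of 100 that the mean had to pass.

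Tbx3, a T-box factor that sustains the naive state, followed with 2 probe sets. The brighter read 559 and 375 in line 1 and 111 and 50.2 in line 2. The dimmer read 358 and 253 in line 1 and 75.3 and 55.8 in line 2. At both probe sets the line 1 arrays lay far above the line 2 arrays, with ratios of the nearest values of 3.37 and 3.36. Zap70 and both Tbx3 probe sets met the rule under all 3 scalings.

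Aqp3, a channel for water and glycerol, had nearly equal line 1 signals. It read 404 and 408 in line 1, against 146 and 113 in line 2. Foxq1, a forkhead factor on the list of primitive endoderm markers, read 200 and 165 in line 1 and 66.6 and 65.0 in line 2. Both held under all 3 scalings, as did Gm9112 (ratio 2.74), Fbll1 (2.32), a paralogue of the nucleolar methyltransferase fibrillarin, and the pseudogene 2210409E12Rik (2.27). Zmym3, an X-linked zinc finger protein, read 541 and 349 against 135 and 117 and held under all 3 at this probe set, while a second member (255 and 324 against 144 and 178) held under the deposited scaling only. At the brightest Zmym3 probe set (mean signal 399), no member, the line difference was 0.36 (log2). Among the other leading line 1 members was Gkn3 (2.63), a gastrokine, which held after quantile normalization but not under centring. Slc6a17 (2.6), a neuronal amino acid transporter, held under neither.

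Genes with several member probe sets gave a repeat of the line difference on the same arrays, which is not a repeat of the experiment. Hbegf, an EGF receptor ligand, had both its tested probe sets among the members, at 911 and 693 in line 1 against 395 and 320 in line 2, and at 1520 and 1232 against 766 and 549. Zbtb10, a zinc finger repressor, did so too, at 357 and 384 against 199 and 200, and at 183 and 208 against 99.0 and 115. Slc9a3r2, a scaffold protein that tethers membrane transporters, had 3 members with ratios of 2.3, 1.75 and 1.42. Fnip1, a folliculin-interacting regulator of nutrient signalling, had 2 (1.6 and 1.46), and Cplx2, a complexin of vesicle release, had 2 (1.96 and 1.71). The rule held under all 3 scalings for 1 Hbegf, 1 Zbtb10, 2 Slc9a3r2 and 2 Cplx2 probe sets and for none of Fnip1.

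**Figure D3:**
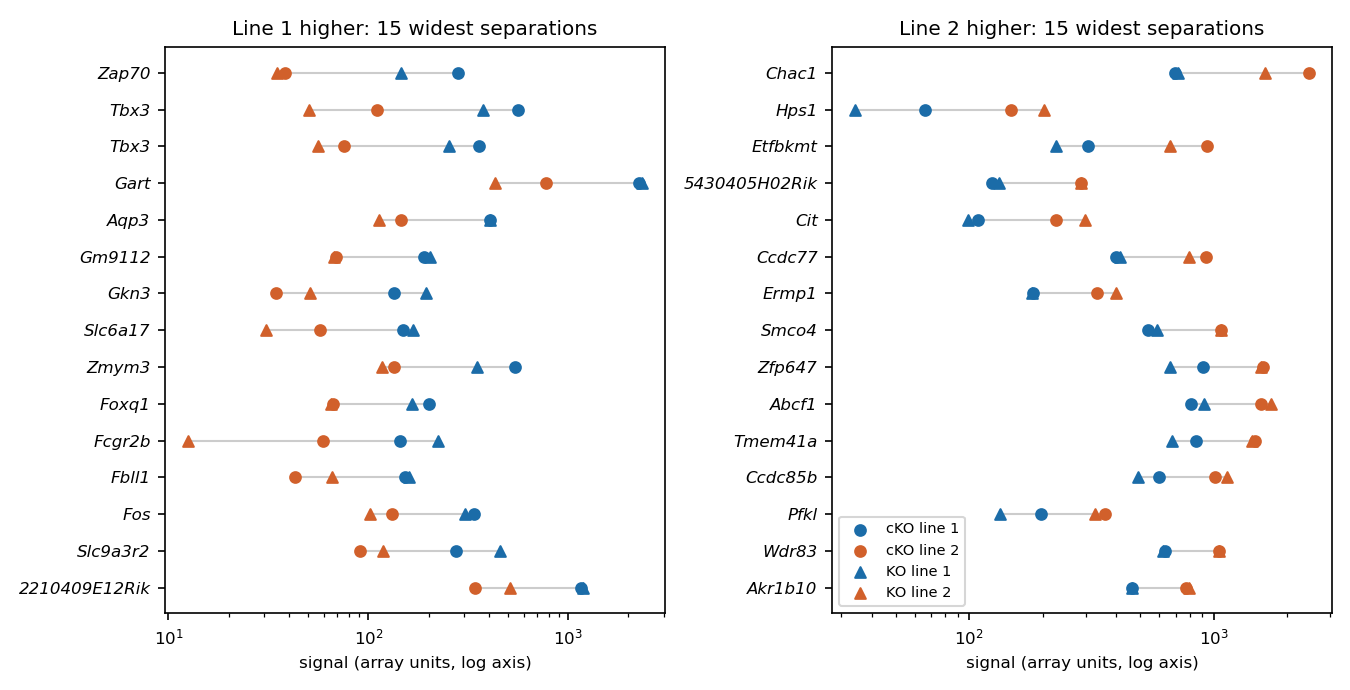
Signals of the 15 members with the widest separation in each direction, on a log axis, 1 row a probe set, with circles for cKO and triangles for KO, blue for line 1 and orange for line 2. In every row the blue and orange points are apart by the rule, with the widest gaps in Zap70 (282 and 146 against 38.2 and 34.8) and Chac1 (692 and 714 against 2462 and 1618).

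Of 22 naive pluripotency genes tested, 2 had a line 1 member (Tbx3 and Esrrb) and 0 had a line 2 member, where 3.89% and 0.919% of all genes tested did. The brightest probe set of these genes was higher in line 1 in both genotypes for 18 of 22 (81.8%), where 36.5% of all genes were so and 34.6% were higher in line 2 in both, with a median line difference of 0.46 (log2) against 0.01 for all genes. That median was 0.19 with arrays centred, where the median over all tested probe sets moved to -0.23, and 0.46 after quantile normalization. It was 0.02 without cKO line 2 and 0.14 without KO line 1, values that the difference between genotypes also enters. The signals of the 22 genes summed to 61240 and 87103 in line 1 and to 46963 and 72115 in line 2. Esrrb, an orphan nuclear receptor, read 157 and 241 in line 1 and 45.0 and 110 in line 2 at its member probe set, which held under the deposited scaling only. Its brightest probe set read 3681 and 6669 in line 1 and 2392 and 4835 in line 2, so there KO line 2 lay above cKO line 1. Nanog was no member but had the same order within each genotype, at 5533 and 8237 in line 1 against 2969 and 5077 in line 2. Core pluripotency genes had no member among 14, and their median was -0.03. Pou5f1 read 10354 and 10504 in line 1 and 11273 and 10179 in line 2, and Sox2 8957 and 11167 against 8652 and 11669.

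Among 24 immediate early genes, 4 (16.7%, against 3.89% of all genes) had a line 1 member (Fos, Egr1, Klf10 and Dusp5). None had a line 2 member, where 0.919% of all genes did. Higher in line 1 in both genotypes were 18 (75%), against 36.5% of all genes. Fos, a subunit of the AP-1 factor, read 338 and 306 in line 1 and 132 and 102 in line 2. Egr1, a zinc finger factor downstream of ERK, read 2191 and 1560 in line 1 and 903 and 423 in line 2. Klf10, a factor induced by TGF-beta, read 1586 and 1621 against 977 and 908. In Fos and Klf10 the arrays of same-numbered lines were close together, while in Egr1 each KO line was below its same-numbered cKO line. Dusp5, an ERK phosphatase, ranged most widely, at 452 and 188 in line 1 and 130 and 23.2 in line 2. Fos held under all 3 scalings, Egr1 and Klf10 failed under centring, and Dusp5 under both other scalings. The median of the list was 0.35, or 0.08 with arrays centred and 0.36 after quantile normalization.

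Ccn1 and Ccn2, matrix-associated proteins whose genes respond to serum, stretch and YAP, were the line 1 members on a list of 21 genes for actin, the cytoskeleton and smooth muscle. They are 9.52% of that list, against 3.89% of all genes, and none of it had a line 2 member (against 0.919%). Ccn1 read 2566 and 1451 in line 1 and 888 and 542 in line 2. Ccn2 read 4782 and 4159 against 2686 and 2688. Both failed the rule under centring and held after quantile normalization. The median line difference of the whole list was 0.40 in the conditional and -0.14 in the knockout genotype, and that of feeder fibroblast genes, with no member among 16, was 0.37 and 0.05. Both lists had a median of -0.11 with arrays centred, from 0.16 and 0.17, in a shift that all tested probe sets shared. Without cKO line 1 the medians were -0.30 and -0.42, and without KO line 2 they were -0.03 and -0.14. With a line left out, the difference between genotypes enters these medians. Col1a1, a collagen gene that defines fibroblasts, read 719 and 135 in line 1 and 312 and 107 in line 2, and Acta2, a smooth muscle actin, 10141 and 4163 against 6210 and 4809. The part of feeder RNA in the line difference was not tested. In the KO lines the summed feeder signal was 23511 in line 1 and 25774 in line 2. The line differences of Ccn1 and Ccn2 in KO were 1.41 and 0.63. The rule required such a difference of every member, so these values cannot bear on that question.

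Nodal and Id3 were the line 1 members among 15 genes of Nodal, BMP and Wnt signalling (13.3%, against 3.89% of all genes). Of these 15, 8 (53.3%, against 36.5% of all genes) were higher in line 1 in both genotypes. Nodal, a TGF-beta family ligand, read 1160 and 1149 in line 1 and 796 and 791 in line 2, so the lines differed while the genotypes matched closely. At the brightest Nodal probe set (mean signal 2484) the line difference was 0.36 (log2). Id3, an inhibitor of basic helix-loop-helix factors and a BMP target, read 2358 and 2197 against 1515 and 1354. Both held after quantile normalization and failed under centring. Mesoderm genes had no member among 8 tested and 7 of them (87.5%, against 36.5%) were higher in line 1 in both genotypes (median 0.71, or 0.44 with arrays centred). Etv5, an ERK-responsive ETS factor on the primed epiblast list, read 502 and 476 against 319 and 196 and held under the deposited scaling only. At the brightest Etv5 probe set (mean signal 4904) the line difference was 0.38 (log2). Lif, the cytokine also added to the medium, and Kit, a receptor tyrosine kinase, were members chosen here after their values were seen. Lif read 144 and 127 in line 1 against 84.5 and 73.2 in line 2, and Kit 411 and 583 against 211 and 269. Lif held under the deposited scaling only, and Kit also after quantile normalization.

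Cholesterol synthesis had 4 line 1 members (20%, against 3.89% of all genes) and no line 2 member (against 0.919%) among 20 genes. Insig1, the sterol-regulated anchor that holds SREBP back, read 3116 and 3442 in line 1 and 1701 and 2030 in line 2. Hmgcs1, an early enzyme of the pathway, read 1567 and 1768 against 955 and 976 at its member probe set. Its brightest probe set, however, read 9146 and 8954 against 8772 and 7509, a line difference of 0.16 (log2). Cyp51 read 955 and 1146 against 665 and 571, with a second probe set at 533 and 783 against 385 and 454. Hsd17b7, an enzyme of sterol demethylation, read 223 and 256 against 130 and 155. Insig1 and Hmgcs1 held after quantile normalization, Cyp51 and Hsd17b7 under the deposited scaling only, and none of the 4 under centring. Of the 20 genes 11 (55%) were higher in line 1 in both genotypes, against 36.5% of all genes, and the median of 0.14 became -0.13 with arrays centred.

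Chac1, which degrades glutathione and is a target of ATF4, was the member with the widest separation among those higher in line 2. It read 692 and 714 in line 1 and 2462 and 1618 in line 2. The line 1 arrays were nearly equal, and both line 2 arrays were at least 2.27 times as high. Trib3, a pseudokinase that damps ATF4, read 457 and 495 in line 1 and 835 and 745 in line 2, with its other probe set at 697 and 739 against 1119 and 995. Stc2, a secreted glycoprotein, read 526 and 512 against 932 and 738 at its member probe set. Its other probe sets read 333 and 218 against 800 and 399, and 345 and 324 against 428 and 250, where the knockout lines were in the reverse order. Chac1, Trib3 and Stc2 were the members among 29 genes of the integrated stress response (10.3%, against 0.919% of all genes). None of the 29 had a line 1 member, where 3.89% of all genes did. Of the 29, 16 (55.2%, against 34.6% of all genes) were higher in line 2 in both genotypes and 6 (20.7%, against 36.5%) in line 1, with a median line difference of -0.11 (-0.38 with arrays centred, -0.12 after quantile normalization). The median was 0.01 without KO line 1 and 0.00 without cKO line 2, values that the difference between genotypes also enters.

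The unfolded protein response had members in both directions among 19 genes. For line 1 they were 2 genes (10.5%, against 3.89% of all genes) and for line 2 they were 1 (5.26%, against 0.919%). Of the 19, 7 (36.8%, against 36.5% of all genes) were higher in line 1 in both genotypes and 6 (31.6%, against 34.6%) in line 2. Herpud1, a component of endoplasmic reticulum-associated degradation, was higher in line 2, at 363 and 345 in line 1 against 632 and 522. Hyou1, a large chaperone of the endoplasmic reticulum, was higher in line 1, at 2583 and 3689 against 1406 and 1599. Hspa5, the chaperone BiP, was a line 1 member through 1 probe set only, at 1388 and 1575 against 872 and 790. The brightest Hspa5 probe set read 10594 and 9414 in line 1 and 10196 and 9699 in line 2, where the lines overlapped. Hyou1 and the Hspa5 member failed under centring and held after quantile normalization. The list had a median of 0.05, which became -0.22 with arrays centred.

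The other line 2 members with the widest separation came from unrelated functions. Hps1, needed for lysosome-related organelles, read 66.2 and 34.1 in line 1 against 148 and 203 in line 2. Its brightest probe set (mean signal 509) had a line difference of 0.12 (log2), the opposite sign. Etfbkmt, a methyltransferase of a mitochondrial electron carrier, read 306 and 226 against 936 and 665, and its dimmer probe set 169 and 136 against 232 and 204. Cit, a kinase of cytokinesis, read 109 and 99.4 against 226 and 298. At the brightest Cit probe set (mean signal 986) the line difference was -0.20 (log2). Ccdc77, a coiled-coil protein, read 397 and 414 against 934 and 791 and was higher in line 2 at its other probe set too. The noncoding RNA 5430405H02Rik gave almost the same signal in same-numbered lines, at 124 and 133 against 287 and 287. Smco4 (541 and 588 against 1068 and 1076), Wdr83 (630 and 618 against 1048 and 1052), a WD repeat scaffold, and Akr1b10 (465 and 464 against 770 and 791), an aldo-keto reductase, were as even. The line 2 arrays were also well above the line 1 arrays in Zfp647 (903 and 662 against 1592 and 1562), a zinc finger protein, Tmem41a (846 and 675 against 1478 and 1442), a membrane protein, and Ccdc85b (599 and 492 against 1015 and 1135). Ermp1, a peptidase of the endoplasmic reticulum, read 183 and 181 against 334 and 398; its bright probe set read 3002 and 2955 against 3850 and 3296, and its remaining one, with line 1 higher, 313 and 297 against 269 and 252. Sertad3, a transcriptional coregulator, and Wdyhv1, a deamidase of amino-terminal glutamine, each had both tested probe sets among the members. Sertad3 read 377 and 367 against 701 and 598, and 215 and 210 against 318 and 309. Wdyhv1 read 254 and 242 against 447 and 404, and 709 and 682 against 1017 and 1002.

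Glycolysis and hypoxia genes had members both ways, with 2 genes of 26 in each direction. That is 7.69% each, against 3.89% of all genes for line 1 and 0.919% for line 2. In both genotypes 6 (23.1%) were higher in line 1 and 6 (23.1%) in line 2, against 36.5% and 34.6% of all genes. Slc2a3, a glucose transporter, and Pfkp, the platelet type of phosphofructokinase, were higher in line 1, while Pfkl, its liver type, and Ankrd37, an ankyrin protein induced by hypoxia, were higher in line 2. Pfkp read 233 and 336 in line 1 against 137 and 101, and Pfkl read 196 and 134 against 358 and 327. At the brightest probe sets of Pfkp (mean signal 2332) and Pfkl (4709) the line differences were only 0.11 and -0.01 (log2). Ankrd37 read 305 and 412 against 580 and 606. Pfkp and both Slc2a3 members held under all 3 scalings. Of 13 metallothionein and oxidative stress genes, 2 had line 1 members (15.4%, against 3.89% of all genes) and 0 had line 2 members (against 0.919%). The zinc exporter Slc30a1 had 2 line 1 members, at 1799 and 2728 against 1097 and 1168 and at 344 and 573 against 184 and 219. Mt1, a metallothionein that binds zinc, was a member at a dim probe set (270 and 565 against 105 and 182), while its bright one read 14551 and 18213 against 12831 and 15189. The Slc30a1 members failed under centring only, and that of Mt1 under both other scalings. The 49 genes of the mitochondrial respiratory chain had no member, and 37 of them (75.5%, against 34.6% of all genes) were lower in line 1 in both genotypes (median -0.16, -0.43 with arrays centred and -0.10 after quantile normalization).

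**Figure D4:**
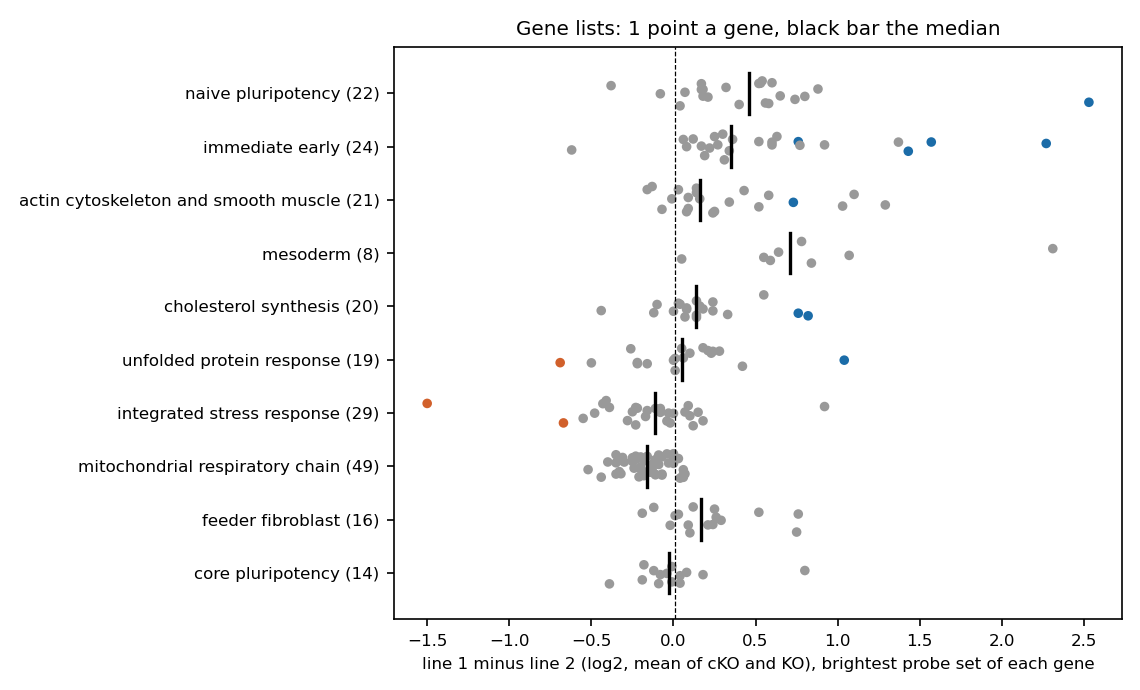
Each point is a gene of a list, placed by the line 1 minus line 2 difference of its brightest probe set (log2, mean of cKO and KO), with the number of genes tested in brackets; blue and orange points are members, black bars are medians and the dashed line is the median of all genes (0.01). Naive pluripotency (0.46) and immediate early genes (0.35) lie to the right, and the respiratory chain (-0.16) and integrated stress response (-0.11) to the left.

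Splicing and nuclear RNA genes had 4 line 1 members (Neat1, Rbm39, Srsf10 and Hnrnph1) and 1 line 2 member (Tra2a) among 28. These are 14.3% and 3.57%, against 3.89% and 0.919% of all genes. Of the 28, 12 (42.9%, against 36.5% of all genes) were higher in line 1 in both genotypes. In line 2, 9 (32.1%, against 34.6%) were so, and the median line difference was 0.07 (log2). Neat1, the noncoding scaffold of paraspeckles, read 121 and 158 against 61.3 and 63.9. Its brightest probe set (mean signal 1668, against 101 at the member) had a line difference of -0.25 (log2), the opposite sign. Srsf10, a splicing regulator, read 2522 and 2848 against 1613 and 1717, and Tra2a, another, 651 and 616 against 923 and 1038. At the brightest probe sets of Tra2a (mean signal 4654) and Hnrnph1 (7467) the line differences were -0.02 and 0.06. Rbm39 was a member at 1 of 12 tested probe sets (250 and 251 against 153 and 139). Its brightest probe set read 2731 and 3247 in line 1 and 2126 and 2494 in line 2. The other list members were Rps18, Stmn3, Cenpa and Rlim. Cenpa, the centromeric histone, read 234 and 231 in line 1 against 357 and 558 in line 2. Its brightest probe set (mean signal 7331) had a line difference of -0.17. Stmn3, a neuronal stathmin, read 432 and 398 against 264 and 274. Neat1, Srsf10 and Rbm39 failed under centring and held after quantile normalization, while Hnrnph1 (339 and 366 against 177 and 227), Stmn3 and Rps18 held under the deposited scaling only.

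The members were mostly single probe sets of genes with several. The further probe sets of these genes are, but for that of Eny2 in each direction, those that did not meet the rule, so a smaller line difference than that of the members follows from the choice. Of the 406 line 1 genes, 258 had further tested probe sets, 536 in all, with a median line difference of 0.17 (log2) against 0.04 for all tested. Of those 536, 317 were higher in line 1 in both genotypes (59.1%, against 40.5% of all tested) and 76 were lower in both. Of the 96 line 2 genes, 57 had 100 further probe sets, with a median of -0.08, of which 43 were higher in line 2 in both genotypes (43%, against 29.7%) and 19 higher in line 1 in both. Among line 1 genes with several tested probe sets (265), the member was the brightest in 54 and another was brightest in 211, with a median of 0.15 at that brightest probe set. All tested probe sets had the sign of the member in 122 of these genes. For line 2 genes with several (59), the member was the brightest in 23, and in 25 all had its sign.

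Slc2a3 had 2 dim members beside bright probe sets. Its member probe sets read 474 and 407 in line 1 against 185 and 106 in line 2, and 481 and 264 against 138 and 79.6. Its bright probe sets read 17378 and 16567 against 15642 and 14687, and 13670 and 11579 against 11260 and 10352. Gart, an enzyme of purine synthesis, had the fourth widest separation at one probe set (2259 and 2344 against 775 and 428), while its brightest read 6196 and 6081 in line 1 and 7406 and 6206 in line 2. Gja1, a gap junction connexin, read 6510 and 7313 against 1654 and 3197 at one member and 13432 and 13626 against 11130 and 12539 at its brightest. Actb, named here after its values were seen, had a member at 2265 and 2820 against 1364 and 1557, and its bright probe set read 17932 and 16676 against 17969 and 16485. Rps18, a ribosomal protein gene, had a member at 146 and 138 against 60.7 and 87.8, next to 3 probe sets with means from 15392 to 24277. The Gart member and the brighter Gja1 member held under all 3 scalings, and that of Actb failed under centring.

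As in Gart, the probe sets disagreed in sign in other genes. Samhd1, a nucleotide hydrolase, had members at 473 and 627 against 230 and 164 and at 231 and 641 against 163 and 53.9, but its brightest probe set read 1107 and 716 in line 1 and 1603 and 1025 in line 2. The brighter Samhd1 member held under all 3 scalings and the dimmer under the deposited one only. Eny2 had a line 1 member at 2467 and 2486 against 1169 and 1666, which failed under centring, and a line 2 member at 2468 and 2115 against 3518 and 3481. Rlim, an X-linked ubiquitin ligase that acts in X inactivation, was a line 2 member at 149 and 160 against 230 and 225, with its brightest probe set at 5479 and 5106 against 5463 and 4644. Abcf1, a translation factor of the ATP-binding cassette family, was a line 2 member at 807 and 913 against 1566 and 1715, and its brightest probe set read 4718 and 4559 against 4605 and 4049. Probe sets of one gene can read different transcript ends or other transcripts, and their positions were not used here.

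**Figure D5:**
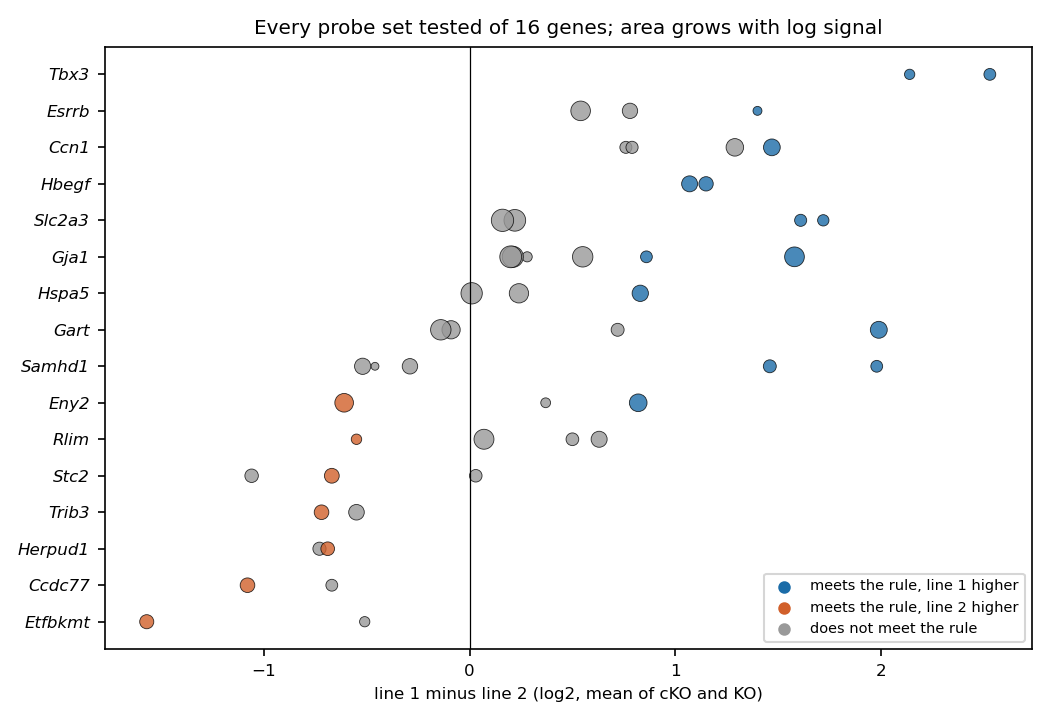
Every tested probe set of 16 genes, placed by the line 1 minus line 2 difference (log2, mean of cKO and KO), with area growing with log signal; blue and orange points meet the rule and grey points do not. All points of Tbx3, Hbegf and Ccdc77 lie on the side of their member, and the large grey points of Slc2a3 and Hspa5 lie near 0. Gart, Stc2, Samhd1, Eny2 and Rlim have points on both sides.

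Members of both directions lay on every autosome and on chromosome X. Line 1 members made up between 1.66% of tested probe sets (chromosome 14) and 3.99% (chromosome X), and line 2 members between 0.195% (chromosome 1, 2 probe sets) and 1.16% (chromosome 15, 8 probe sets). The median line difference of a chromosome lay between -0.01 and 0.10 (log2) in cKO and between 0.00 and 0.09 in KO. Probe sets of the _x_at class, whose probes can match several genes, made up 11.5% of line 1 members (49), 3.06% of line 2 members (3) and 6.76% of all tested. Their readings are uncertain for families such as ribosomal protein genes. Median gene span was 28.9 kb for line 1 members, 12.8 kb for line 2 members and 23.2 kb for all. Median GC content of the promoters was 62.3%, 59% and 61.7%.

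For same-numbered lines, the share of members with close knockout and conditional arrays was set beside that of all probe sets. Both line numbers had a KO minus cKO difference within 0.5 (log2) in 333 of 426 line 1 members (78.2%) and 90 of 98 line 2 members (91.8%), beside 74.2% of all tested. The rule puts both arrays of a line number on the same side, so these shares are a description only. In the limma comparison of KO with cKO over all 17627 probe sets, 242 were called at an adjusted p under 0.05 (1.37%), 53 higher in KO (0.301%) and 189 lower (1.07%). Of the 524 members, limma called 0, and 0 had an unadjusted p under 0.05. Membership places both lines of a genotype far apart and makes KO and cKO overlap, which limits what this fit, made without the line number, can call, and the count says nothing of an effect of UTX on these genes.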

How the data were processed

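The deposited table holds 1 linear intensity for each probe set on each array. Per the submitters' processing notes, the authors used MAS5 to compute these intensities. Version, settings and detection calls are not given in the sources used here. After trimming 2% from each end, every array had a mean of 500, while medians over all probe sets ran from 64.4 to 81.6. MAS5 signals are noisy near background, and the number of arrays (4) limits the precision.

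Probe sets were named through the platform's annotation, of which 34741 took a current symbol through Entrez identifiers (RefSeq, GRCm38.p6) and 204 kept their own. Left out were 932 naming several genes, 9160 naming none and 64 controls. Of the controls 13 named a gene, and the choice to leave them out was made after they were seen; 0 of them met the rule. Gene lists (29 with genes on the array) give the brightest probe set of each gene for medians.

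Log2 differences are of log2(signal + 4.79), the pseudocount being the 10th percentile, and understate changes of dim probe sets. The genotypes were compared in R 4.3.3 by limma 3.58.1 (lmFit, then eBayes with a trend), with Benjamini-Hochberg adjustment over all 17627 probe sets, and the code was tested on simulated data. The labels name 4 lines but do not say how these were derived or whether they are independent. The p-values therefore reflect only the spread among these 4 samples, which may be technical. Other steps used Python 3.11.15, numpy 2.4.6, pandas 2.3.3 and matplotlib 3.10.9.

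Named are Kdm6a, the 15 members of largest ratio in each direction, members on a gene list, genes with at least 2 member probe sets in a direction (up to 10), Y-linked genes and the defining feeder markers. Members of these groups not written out are in the plots or counts. The members and lists were chosen with earlier results of these data known. The 3 motifs marked, out of 7 looked at in 22 genes, the 5 promoters printed, the genes compared across probe sets the count of members kept under all scalings and the correlation of the line differences without the members and under other scalings were chosen after values were seen. Alternatives were other scalings, folds, signal minimums, pseudocounts, the brightest probe set, no trend, the line number as a block, and each line left out.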

Additional observations from a re-analysis of the deposited data

Results flagged for a closer look

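In 2 of the named line 1 members the KO minus cKO difference went in opposite directions for the 2 line numbers, by more than 0.5 (log2) each. Fcgr2b, an inhibitory receptor for antibodies, read 144 and 222 in line 1 (cKO, then KO) and 59.4 and 12.5 in line 2, a KO minus cKO difference of 0.61 in line 1 and -1.90 in line 2. Samhd1 at its dimmer member probe set read 231 and 641 against 163 and 53.9, which gives 1.45 in line 1 and -1.51 in line 2. With 1 array per line the opposite directions were not tested. Among all 524 members 4 had this pattern, the others being Lats2 (0.59 and -0.85) and 2610005L07Rik (0.68 and -0.72), which were picked out after their values were seen.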

How the results depend on the processing

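The counts of members followed the settings closely. A fold of 1.2 in place of 1.4 gave 1324 line 1 and 582 line 2 members, and a fold of 2 gave 28 and 5. Centring each array on its median gave 85 and 823, and quantile normalization 207 and 198. A mean signal of at least 50 gave 869 with line 1 higher and 138 with line 2 higher, and of at least 200 gave 222 and 68. With only the brightest probe set of each gene the counts were 195 and 60. Without 1 line at a time the line 1 count ran from 1027 (without KO line 1) to 1364 (without KO line 2) and the line 2 count from 305 (without KO line 2) to 465 (without cKO line 2), since fewer values had to be apart. Centring acted through the median log2 signals, which were 0.24 (cKO) and 0.31 (KO) higher in line 1. Why these medians differed was not tested.

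For KO against cKO, 242 probe sets were called by limma. The count was 125 with no filter on signal and 2 without the trend, and ran from 222 (without KO line 2) to 448 (without cKO line 1) with each line left out, where the lone line was assumed to vary like the other group. The members called rose from 0 to between 1 and 8: 8 without cKO line 1, 4 without cKO line 2 (Slc2a3, Dusp5, Ccn1 and Pf4), 1 without KO line 1 (Dusp5) and 1 without KO line 2 (Samhd1). In each fit with a line left out, a smaller share of members than of all probe sets was called. The rise from 0 thus does not mark members as called more often than other probe sets. The labels do not pair the lines. Deviations of same-numbered lines from their group means correlated at 0.49 over 17627 probe sets. With 2 lines a group this restates the correlation of the line differences given above, which was 0.41 without the members. It is no separate evidence that the lines are paired. With the line number as a replicate block, limma called 1518 probe sets (8.61%) and 7 members, of which Mt1 and Mreg were higher in KO and Dusp5, Nuak1, Ccn1, Egr1 and Slc2a3 lower. Members picked by the naming rule kept their direction after quantile normalization. The rule itself fixes the direction when a line is left out, and also under centring, where the shift is smaller than the separation it demands.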
